A study of Mus musculus with 23 samples.

Results

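Lrp1, Vldlr, Sdc1 and Mylip are 4 genes of hepatic lipoprotein clearance, 2 endocytic receptors, 1 heparan sulfate proteoglycan and 1 receptor-degrading ubiquitin ligase. They were chosen by gene name and were all present in both deposited liver RNA-seq tables, which together list 26522 genes, 22852 of them in both. The livers came from 23 mice killed in the fed state after 16 weeks on a diet that the labels call WD. They form 4 groups: B100-Control males (n = 5, replicates 1, 2, 3, 4 and 6), B100-LKO males (n = 6), B100-Control females (n = 6) and B100-LKO females (n = 6). All 4 groups carried the B100 genotype, and LKO denotes the hepatic ablation of Cpt1a, the gate of mitochondrial long-chain fatty acid entry. The labels do not give the driver of the ablation, the ages of the mice or the nature of the B100 allele, and they do not say whether livers were pooled. The series asks how the loss of hepatic Cpt1a bears on plasma cholesterol, and the question put here was whether the transcripts of these clearance genes differed between genotypes. Whole-liver RNA does not tell fewer cells of a type from less RNA per cell.

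Remnant and low-density lipoproteins leave the blood mainly through hepatocytes. Heparan sulfate chains in the space of Disse, carried in mouse hepatocytes chiefly by syndecan-1 (Sdc1), bind remnants enriched in apolipoprotein E, and receptors such as LRP1 internalise them. The very-low-density lipoprotein receptor (Vldlr) is scarce in healthy liver and abundant in heart, muscle and fat, and its hepatic transcript is known to be induced by ATF4 in the integrated stress response. Mylip, also called Idol, is an E3 ubiquitin ligase transcribed under the oxysterol-sensing LXR receptors, and it sends certain lipoprotein receptors, Vldlr among them, to the lysosome.

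Libraries held 14224665 to 19626662 gene-assigned counts. Counts were scaled to CPM, the count a gene would have at a fixed library total, with trimmed-mean (TMM) factors over all 23 livers, and differences are log2 fold changes from edgeR's quasi-likelihood test, with p-values adjusted by Benjamini and Hochberg's method across every gene tested. Cpt1a itself averaged 357 ± 50.4 CPM (SD, n = 5) in control males and 63.1 ± 20.3 (n = 6) in LKO males, and 388 ± 59.2 (n = 6) in control females and 75.9 ± 8.88 (n = 6) in LKO females, log2 differences of -2.50 and -2.35 (edgeR adjusted p = 9.97e-05 and 3.69e-08). Control male replicate 4 had the smallest library and the fewest genes with any count, 18232, and it was the lowest or highest liver of its group for several genes below. Results that it moved most are also given without it. Males and females were deposited in separate tables, so sex and table cannot be told apart.

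None of the 4 transcripts differed between genotypes past the threshold, an adjusted p of 0.05. In males 0 of 4 were called, against 0.00724% of the 13805 genes tested, which is 1 gene, Cpt1a. In females 0 of 4 were called, against 1.42% of the 13684 genes tested. None of the 4 reached an unadjusted p under 0.05 in either sex, as 12.5% of all genes did in males and 15.6% in females. Limma on log2 FPKM also called 0 of 4 in each sex. Among the 9 lists of neighbouring genes read below it called 0 in males and 2 in females, and its share over all genes is not given here. DESeq2 called no member in either sex, where it called 0.811% of all genes in males and 4.09% in females. It gave Vldlr in males no adjusted p, so only the other members could be called there. With the sexes averaged, edgeR and DESeq2 again called 0 of 4, where edgeR called 0.545% of 14503 genes and DESeq2 2.23%. The unadjusted edgeR p was under 0.05 for 0 of 4, and for 14.8% of all genes. Sex, in contrast, separated Vldlr and Sdc1 but not Lrp1 and Mylip: 2 of 4 were higher in control females than in control males, where 8.80% of the 13699 genes tested were higher in females. The same pair was higher in LKO females than in LKO males, where 5.89% of 13778 genes were, a comparison added after the data had been seen.

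**Figure D1:**
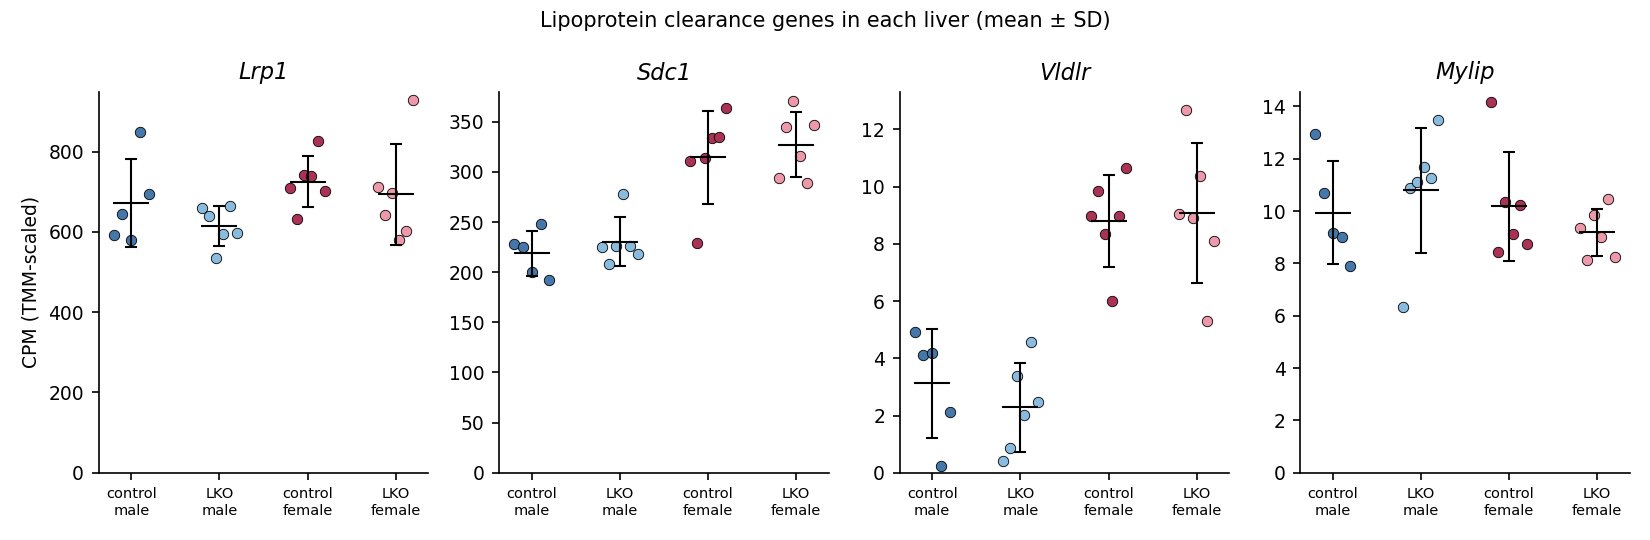
Each point is 1 liver, the vertical axis is CPM after TMM scaling and starts at 0, and the bars are the group mean ± SD for n = 5 control males and n = 6 in each other group. The control and LKO livers of each sex overlap for all 4 genes, while every female Vldlr value lies above every male value.

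Compared per length of transcript, on the deposited FPKM scale, Sdc1 was the most abundant of the 4, with group means from 57.3 to 84.7 FPKM. Lrp1 followed with means of 34.5 to 40.6 FPKM, and Mylip with 2.80 to 3.32 FPKM. Vldlr was the scarcest in every group, with means of 0.309 FPKM in control males, 0.226 in LKO males, 0.866 in control females and 0.888 in LKO females. The order Sdc1, Lrp1, Mylip, Vldlr held in all 4 groups, and no 2 neighbours in it overlapped between livers of the same group. In control males Lrp1 stood above 94.3% of the genes with a nonzero mean FPKM and Vldlr above 41.9%. FPKM values of the 2 sexes come from separately deposited tables, and only the order within a group is read from them.

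Lrp1 (ENSMUSG00000040249, chromosome 10, 127374030 to 127457017 on the minus strand in mm39) encodes a large endocytic receptor for chylomicron remnants and protease complexes. The control males gave 592.5, 643, 580, 849 and 693 CPM for replicates 1, 2, 3, 4 and 6. LKO males ran from 535 through a median of 618 to 664 CPM, so that 2 of the 5 controls lay above all of them and the rest fell within their range. Control females ran from 633 (median 724) to 826.5 CPM, and LKO females from 581 (median 669) to 929 CPM. The LKO female at the top, replicate 6, was the only one above the control females' range. In males the log2 difference between LKO and control was -0.13 (SE 0.106, adjusted p = 0.667), with a 95% interval from -22.5% to 8.1%. It was -0.0322 without control male replicate 4, and -0.167 to -0.0825 without each of the other males in turn. In females it was -0.07 (SE 0.111, adjusted p = 0.832), with an interval from -19.6% to 13.3%, and -0.166 to -0.021 on leaving out single livers (-0.166 without LKO female replicate 6). The female difference minus the male one was 0.06 (SE 0.157, adjusted p = 0.903), and it changed sign without control male replicate 4 (-0.0437) or LKO female replicate 6 (-0.0397). Females and males did not differ past the threshold in either genotype, with log2 differences of 0.11 in controls (adjusted p = 0.523) and 0.16 in LKO livers (adjusted p = 0.375).

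Vldlr (ENSMUSG00000024924, chromosome 19, 27193884 to 27231631 on the plus strand in mm39) was spread most widely of the 4. Control males gave 4.91, 4.12, 4.19, 0.241 and 2.14 CPM for replicates 1, 2, 3, 4 and 6, from 80, 70, 71, 3 and 37 counts. LKO males gave 0.404, 0.878, 3.38, 2.02, 4.58 and 2.48 CPM for replicates 1 to 6, from 6 to 74 counts. Both male groups thus held livers with a handful of reads beside livers with many more, and the groups overlapped almost wholly. The coefficient of variation was 61.2% in control males and 67.9% in LKO males, against 18.1% in control females and 27.0% in LKO females. The LKO against control difference in males was -0.46 (SE 0.58, adjusted p = 0.806), and its 95% interval ran from -1.77 to 0.85, that is from -70.7% to 80.5%. The interval takes in the spread between livers, and only differences beyond it lay outside the precision of this comparison. The difference was -0.741 (adjusted p = 0.558) without control male replicate 4 and -0.25 (adjusted p = 0.892) without LKO male replicate 1, the lowest liver of each group. In females the control livers ran from 5.99 (median 8.98) to 10.7 CPM and the LKO livers from 5.30 (median 8.98) to 12.7 CPM. The female difference was 0.04 (SE 0.18, adjusted p = 0.945), with an interval from -22.2% to 35.8%. The interaction was 0.50 (SE 0.58, adjusted p = 0.76).

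Every female liver held more Vldlr transcript than every male liver. Control females averaged 8.80 ± 1.59 CPM (SD, n = 6) and control males 3.12 ± 1.91 (n = 5), a 2.77-fold difference (log2 1.47, SE 0.395, adjusted p = 0.0218). LKO females averaged 9.06 ± 2.44 CPM (n = 6) and LKO males 2.29 ± 1.56 (n = 6), a 3.91-fold difference (log2 1.97, SE 0.377, adjusted p = 0.00313). An exact permutation test, two-sided and run on log2(CPM + 1), gave p = 0.00216 in each genotype, the smallest value these group sizes allow. Without control male replicate 4 the control difference was 1.19 (adjusted p = 0.00269), and without control male replicate 6 it was 1.35 and no longer called (adjusted p = 0.0577).

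Sdc1 (ENSMUSG00000020592, chromosome 12, 8821323 to 8843715 on the plus strand in mm39) encodes a transmembrane core protein that carries heparan sulfate. Control males gave 228, 225, 200.1, 248 and 192 CPM, and LKO males ran from 208 (median 226) to 278 CPM. Control females ran from 229 (median 324) to 364 CPM and LKO females from 289 (median 331) to 371 CPM. Within each sex the genotypes overlapped, and the log2 differences were 0.07 in males (SE 0.0949, adjusted p = 0.812) and 0.05 in females (SE 0.105, adjusted p = 0.86). Their 95% intervals ran from -9.37% to 22.1% and from -11.7% to 22.2%. The interaction was -0.02 (SE 0.144, adjusted p = 0.972). Between the sexes Sdc1 was 1.44-fold higher in control females (log2 0.52, SE 0.115, adjusted p = 0.00851) and 1.41-fold higher in LKO females (log2 0.50, SE 0.0898, adjusted p = 0.00198). The LKO groups of the 2 sexes did not overlap, while control female replicate 2, at 229 CPM, lay within the control males' range. The call in controls held without any 1 of the 11 livers, with log2 differences of 0.476 to 0.598.

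The 250 bases before the annotated starts of the 4 genes were read from RefSeq (build GRCm38.p6, another build than that of the tables), and all 4 genes had an entry. Those of Vldlr and Sdc1 are printed because these were the 2 members that differed between the sexes. The patterns of 7 motifs were searched on both strands: the ATF4 element TGATGNAA, the GC box GGGCGG, the TATA box TATAAA, the STAT5 element TTCNNNGAA, the E-box CACGTG, and the DR1 and DR4 direct repeats of AGGTCA, spaced by 1 and 4 bases. Capitals mark the matches.
Vldlr, first start, chr19:27216234-27216483, plus strand: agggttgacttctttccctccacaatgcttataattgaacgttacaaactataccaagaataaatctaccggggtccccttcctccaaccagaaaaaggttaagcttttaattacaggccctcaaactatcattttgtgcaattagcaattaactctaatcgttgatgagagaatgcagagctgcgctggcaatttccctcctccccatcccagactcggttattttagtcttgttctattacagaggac
Vldlr, second start, chr19:27216770-27217019, plus strand: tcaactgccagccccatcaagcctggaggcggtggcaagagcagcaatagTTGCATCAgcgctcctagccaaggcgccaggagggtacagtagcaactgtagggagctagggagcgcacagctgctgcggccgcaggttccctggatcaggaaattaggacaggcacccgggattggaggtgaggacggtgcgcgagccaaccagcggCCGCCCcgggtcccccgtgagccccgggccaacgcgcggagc
Sdc1, first 177 of 250 bases, chr12:8771146-8771322, plus strand: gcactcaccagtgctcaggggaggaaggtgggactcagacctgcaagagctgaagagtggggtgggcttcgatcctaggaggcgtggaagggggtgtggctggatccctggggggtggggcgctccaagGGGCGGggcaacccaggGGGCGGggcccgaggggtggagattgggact
The second Vldlr start had an ATF4 element on the minus strand, 200 to 193 bases before the start, which 3.45% of 32851 promoter windows of this length also hold, and a GC box 42 to 37 bases before it, held by 32.7% of windows. The first Vldlr start matched none of the patterns and was 41.6% G and C, against 66.4% for the second and a median of 52.4% over all windows. Sdc1 held 3 GC boxes, the third 49 to 44 bases before the start and beyond the printed stretch. Of the other promoters, Mylip held a GC box and a TATA box (12.4% of windows), and Lrp1 a GC box and a STAT5 element (7.02% of windows). A match is a run of letters and not a measured binding site, and Vldlr counts are summed over both starts.

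Mylip (ENSMUSG00000038175, chromosome 13, 45543218 to 45565498 on the plus strand in mm39) gave 12.95, 10.7, 9.14, 9.0 and 7.92 CPM in control males. LKO males ran from 6.32 (median 11.2) to 13.5 CPM, with LKO male replicate 1 apart at the bottom and the other 5 at 10.9 CPM or more. Control females ran from 8.45 (median 9.68) to 14.2 CPM and LKO females from 8.13 (median 9.19) to 10.5 CPM, all from 94 to 239 counts a liver over the 4 groups. The genotypes overlapped in both sexes. The log2 difference was 0.12 in males (SE 0.178, adjusted p = 0.849) and -0.15 in females (SE 0.128, adjusted p = 0.63), with 95% intervals from -17.9% to 43.4% and from -26.1% to 9.76%. Leaving out single livers gave 0.0435 (without control male replicate 6) to 0.234 (without control male replicate 1) in males, and -0.2 (without control female replicate 2) to -0.0291 (without control female replicate 1) in females. The 2 directions differed, but the interaction of -0.27 (SE 0.219) had an adjusted p of 0.636. Between the sexes Mylip differed by 0.03 in controls (adjusted p = 0.921), with a sign that depended on the scaling, and by -0.24 in LKO livers (adjusted p = 0.311). Without LKO male replicate 1 the latter became -0.351 and was called (adjusted p = 0.0321). An annotated noncoding gene on the same strand overlaps Mylip and held 0 to 5 counts a liver, and an antisense gene that overlaps Lrp1 held 0 to 2.

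**Figure D2:**
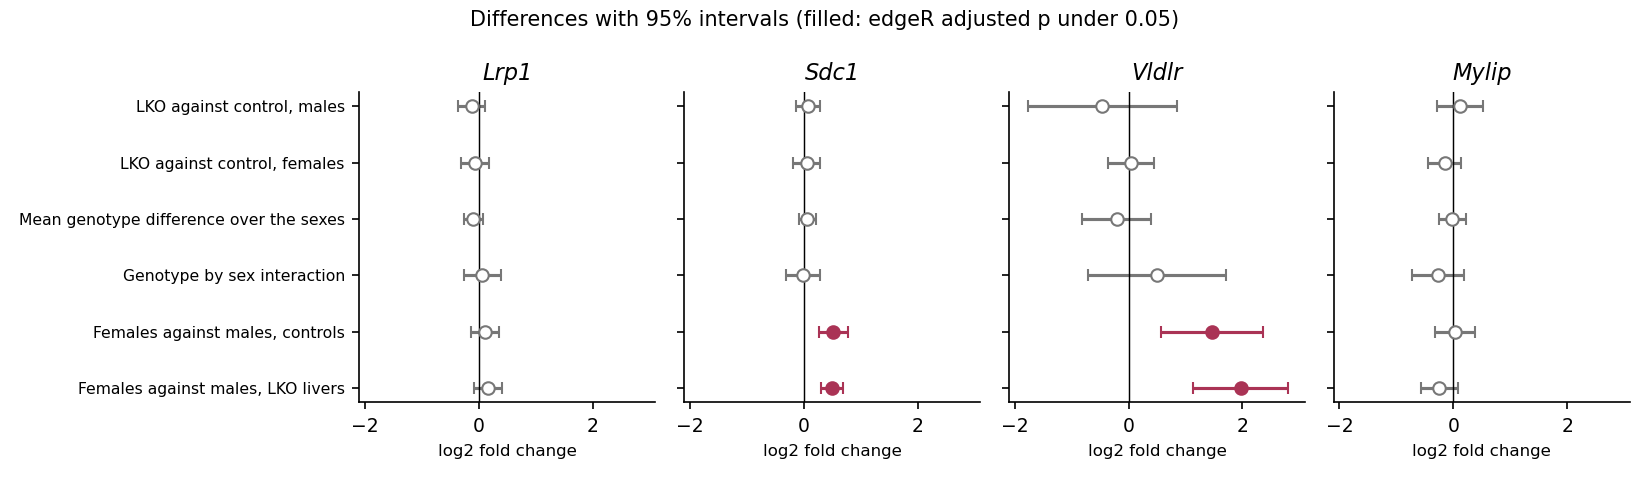
The horizontal axis is the log2 fold change from edgeR, points are estimates and bars are 95% intervals, and filled points have an adjusted p under 0.05. Only the comparisons of the sexes for Sdc1 (0.52 and 0.50) and Vldlr (1.47 and 1.97) are filled, and the Vldlr interval in males is the widest of the genotype comparisons.

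Genes that work beside the 4 members were read as 9 lists of 143 genes, of which 132 were tested in males and 128 in females. In males edgeR called 0 of 132, with 16 of 132 (12.1%) at an unadjusted p under 0.05 where 12.5% of all genes were, and DESeq2 called 3 of 132 where it called 112 of 13805 genes (0.811%). In females edgeR called 2 of 128, Gpc1 and Lpl, both higher in LKO livers, and 27 of 128 (21.1%) had an unadjusted p under 0.05 where 15.6% of all genes did. DESeq2 called 9 of 128 where it called 559 of 13684 genes (4.09%). In the interaction edgeR called 0 of 134, as it called 0 of all 14503 genes tested. An unadjusted p under 0.05 was found for 18 of 134 (12.9% of all genes). DESeq2 called 1 of 134, Fgf21, where it called 96 of 14503 genes (0.662%).

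Gpc1, glypican-1, a heparan sulfate core anchored by a lipid, was the 1 gene that edgeR called among the proteoglycan cores in females, and DESeq2 called Col18a1 and Sdc2 as well. The median of the 9 cores tested was -0.20, against 0.0051 over all genes. It moved to -0.104 without LKO female replicate 1, to -0.136 without LKO female replicate 3 and to -0.0533 with no filter on low counts. Gpc1 in control females ran from 7.64 (median 16.7) to 37.1 CPM and LKO females from 33.6 (median 57.1) to 91.3 CPM, with 1 control above the lowest LKO liver. The difference was 3.46-fold (log2 1.79, SE 0.331, adjusted p = 0.0156). In males Gpc1 averaged 63.4 ± 31.6 CPM (SD, n = 5) in controls and 88.01 ± 20.8 (n = 6) in LKO livers (log2 0.47, adjusted p = 0.597), and the interaction was 1.32 (adjusted p = 0.294). Gpc1 was also lower in control females than in control males (log2 -1.86, adjusted p = 0.0118), the opposite direction to Sdc1.

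Among 14 ligands, lipases and lipase regulators, edgeR called 1 in females and DESeq2 also called Lipc, hepatic lipase. The 1 was Lpl, lipoprotein lipase, which hydrolyses triglyceride in circulating particles and also bridges them to heparan sulfate. Control females ran from 18.8 (median 33.7) to 46.5 CPM and LKO females from 60.8 (median 67.4) to 73.3 CPM, with no overlap. The difference was 2.04-fold (log2 1.03, SE 0.184, adjusted p = 0.0134). Males averaged 44.3 ± 18.7 CPM (SD, n = 5) in controls and 63.3 ± 17.9 (n = 6) in LKO livers (log2 0.51, adjusted p = 0.453), and the interaction was 0.51 (adjusted p = 0.543). Both Gpc1 and Lpl were called with the sexes averaged, at adjusted p values of 0.039 and 0.0354 by edgeR. Beside them, 4 of 6 markers of lipid-associated macrophages were higher in LKO females: Mmp12, Gpnmb, Trem2 and Spp1, with log2 differences of 2.50, 3.22, 1.32 and 0.66 (edgeR adjusted p from 0.000908 to 0.0135), where 1.42% of all genes were called. In the fit of all 23 samples Gpnmb (adjusted p = 0.0661), Trem2 (0.167) and Spp1 (0.335) were not called in females. Of the 6 markers, 1 was lower in LKO females, and it was not called. In males the differences of Mmp12, Gpnmb, Trem2 and Spp1 were 0.625, 0.304, 0.105 and 0.126. None of the 6 markers was called in males or in the interaction (lowest edgeR adjusted p = 0.411 and 0.278). The summed level of the 6 markers was 61.6 to 88.9 CPM in control females and 92.6 to 154 CPM in LKO females, and its part in the Lpl and Gpc1 differences was not tested. Summed markers of fat and muscle stayed at or below 2.94 CPM in every liver.

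In the other 7 lists edgeR called no gene by genotype in either sex. DESeq2 called 3 of their genes in males, Commd9, Fam20b and B3gat3, and 4 in females, Cd36, Sulf2, Fgf21 and Scap. Lipoprotein receptors other than the members had medians of 0.09 in males (16 tested) and 0.11 in females (15 tested), and the male median was -0.0137 without control male replicate 4. Their lowest p values fell on Asgr1, an asialoglycoprotein receptor subunit, in males (log2 -0.23, adjusted p = 0.407) and on Cd36, a fatty acid and oxidised lipoprotein receptor, in females (log2 0.59, adjusted p = 0.111). Among 18 tested chaperones, adaptors and recycling factors, which fold receptors and return them to the surface, the medians were -0.00198 in males and 0.04 in females. Commd9, of an endosomal recycling complex, was lowest in p in males (log2 -0.31, adjusted p = 0.245), and Vps29, a retriever and retromer subunit, in females (log2 0.20, adjusted p = 0.144). Heparan sulfate synthesis genes had medians of 0.08 in males (23 tested) and -0.08 in females (22 tested), led by the xylose kinase Fam20b in males (log2 0.46, adjusted p = 0.245) and the sulfatase Sulf2 in females (log2 0.40, adjusted p = 0.103). The DESeq2 adjusted p was 0.0323 for Cd36, 0.0427 for Sulf2, 0.0358 for Commd9 and 0.0301 for Fam20b. In edgeR Cd36 and Sulf2 passed without control female replicate 3 (adjusted p = 0.0485 and 0.0447), and Sulf2 also without LKO female replicate 5 (0.0359). Among the cores in males (10 tested, median 0.02, and 0.113 without control male replicate 4), agrin (Agrn) was lowest in p at a log2 difference of 0.28 (adjusted p = 0.343).

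LXR and its targets bear on Mylip, which those receptors transcribe. All 12 were tested, and their median was 0.08 in males and -0.13 in females. In males Cyp7a1, the rate-limiting enzyme of bile acid synthesis, averaged 22.5 ± 12.7 CPM in controls (SD, n = 5) and 45.5 ± 17.6 in LKO livers (n = 6; log2 1.01, adjusted p = 0.334). In females Scd1, the stearoyl-CoA desaturase, had a log2 difference of -0.67 (adjusted p = 0.257). The 10 ubiquitin partners of Mylip had medians of 0.03 and -0.00703, with the deubiquitinases Usp2 in males (0.52, adjusted p = 0.506) and Stambp in females (-0.16, adjusted p = 0.351) lowest in p.

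The proteases that shed the ectodomains of Lrp1 and Sdc1 had medians of 0.10 in males (15 tested) and 0.10 in females (14 tested). The sheddases Adam17 in males (log2 0.30, adjusted p = 0.401) and Adam10 in females (log2 0.26, adjusted p = 0.128) were lowest in p, and 0 were called. Of the 14 regulators known to act on Vldlr, all tested, the medians were -0.05 in males and 0.03 in females. Atf4, the transcription factor of the integrated stress response, differed by -0.31 in males (SE 0.0918, adjusted p = 0.274), and Scap, the escort of SREBP, by -0.41 in females (SE 0.102, adjusted p = 0.0647). Scap passed the threshold under DESeq2 (-0.407, adjusted p = 0.00966) and without control female replicate 3 (-0.468, adjusted p = 0.0261). Apoc3, an inhibitor of triglyceride clearance, was lowest in p among male ligand and lipase genes (log2 -0.29, adjusted p = 0.367).

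**Figure D3:**
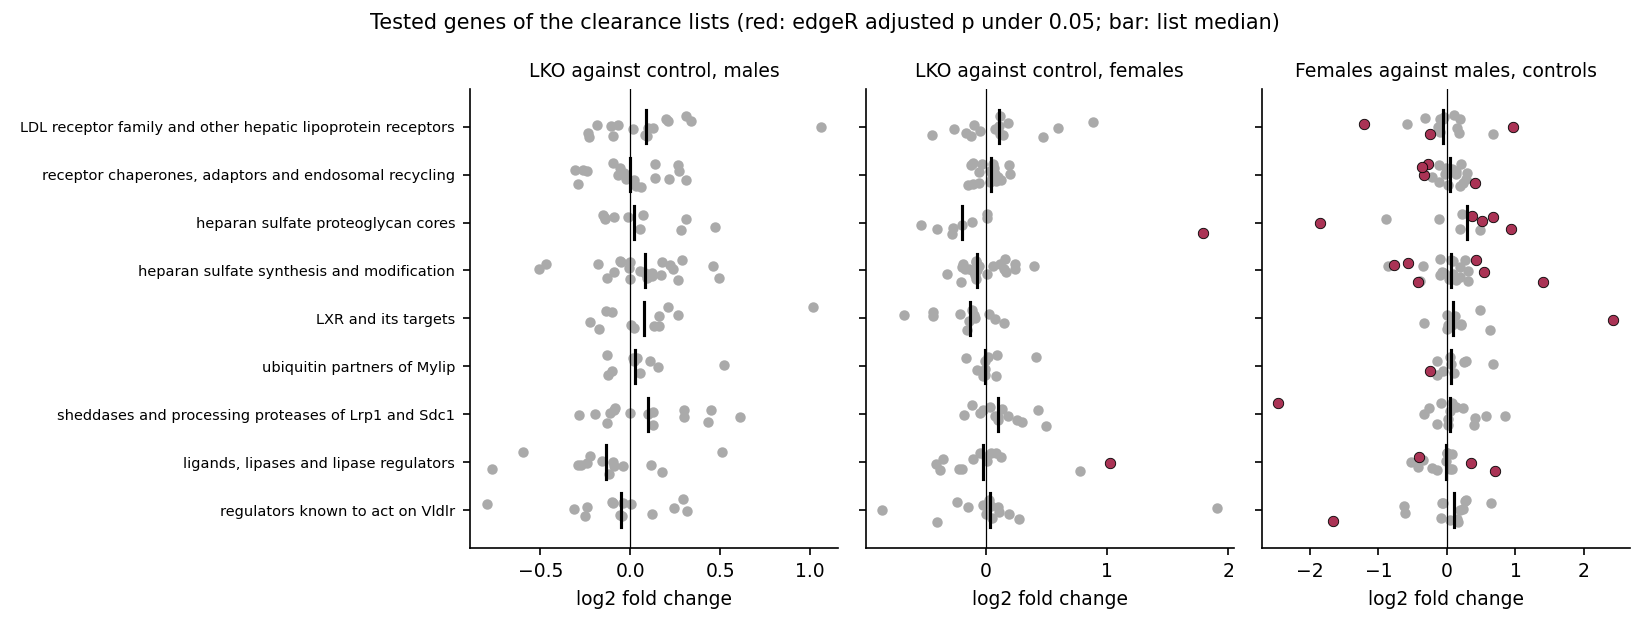
Each point is 1 tested gene of a clearance list, the horizontal axis is its log2 fold change, the black bar is the list median, and red marks an edgeR adjusted p under 0.05. The genotype panels hold 0 red points in males and 2 in females, Gpc1 at 1.79 and Lpl at 1.03, and the panel of the sexes in controls holds 25.

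The sexes also differed in other heparan sulfate cores, which are named here after their values were seen. Of the 10 tested in controls, Sdc2, Sdc3, Sdc4 and Gpc4 were higher in females, by log2 differences of 0.67, 0.52, 0.93 and 0.36, and Gpc1 was lower (edgeR adjusted p from 0.0118 to 0.0456). Single livers decided 3 of these calls. Sdc3 was lost without control male replicate 2, 3 or 6 or control female replicate 1, 2, 3, 5 or 6 (adjusted p up to 0.109) and with library size alone (0.0727). Sdc4 was lost without control male replicate 1, 2, 3 or 6 or control female replicate 6 (up to 0.0622), and Gpc4 without control male replicate 1, 2 or 3 (up to 0.0586). Both calls held without control male replicate 4, the highest control male for each. Over all single omissions the log2 difference ran from 0.829 to 1.23 for Sdc4 and from 0.32 to 0.447 for Gpc4. In LKO livers 1 of 10 was called, Sdc2 (log2 0.42, adjusted p = 0.0306), and this too was lost without any 1 of 5 livers (LKO male replicates 3, 4 and 6 and LKO female replicates 1 and 5), with adjusted p up to 0.071. In LKO livers Gpc1 passed without LKO female replicate 3 (log2 -0.689, adjusted p = 0.0329) and Sdc4 without LKO male replicate 1 (0.717, adjusted p = 0.0204). Sdc1 was thus called in both genotypes without dependence on 1 liver. The markers of other cells also differed between the sexes in controls: 4 of 11 macrophage markers and 3 of 6 hepatocyte markers were higher in females, and 3 of 6 markers of lipid-associated macrophages were lower. The summed macrophage markers were 556 to 1037 CPM in control males and 844 to 1534 in control females, and the summed hepatocyte markers 54128 to 78390 and 78990 to 95813 CPM. Of 8 sinusoidal endothelial markers 1, Stab2, was higher in control females, and of 8 stellate and fibroblast markers 1, Col1a1, was lower. EdgeR called 2466 of 13699 genes (18%) in that comparison and 1708 of 13778 (12.4%) in LKO livers. In LKO livers 4 of 11 macrophage markers and 2 of 4 tested cholangiocyte markers, Krt7 and Krt19, were higher in females. Of 8 endothelial markers 1, Lyve1, was lower. The part of these cells in the Sdc1 and Vldlr differences was not tested.

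Each member's closest companions were sought among 10611 genes by Pearson correlation of log2(CPM + 1) over the 23 livers after the mean of each group was taken off, and the 3 highest are given without a test, since they were chosen for their r. The points share library, scaling and composition. Lrp1 varied most closely with Mbl1, a mannose-binding lectin (r = 0.921), Saa4, a constitutive serum amyloid A (0.878), and Vtn, vitronectin (0.872), 3 transcripts of secreted hepatocyte proteins. These relations stood at 0.851, 0.718 and 0.792 without LKO female replicate 6 and control male replicate 4, the livers farthest from the median of Lrp1. Mylip varied most closely with Clec14a, a C-type lectin of endothelium (0.862), Oit3, a sinusoidal endothelial transcript (0.757), and Degs1, a ceramide desaturase (0.718). In males and females taken alone Clec14a gave 0.929 and 0.703, and Oit3 0.753 and 0.797.

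For Vldlr the highest were Idh2, the mitochondrial NADP-dependent isocitrate dehydrogenase (0.873), Limk1, a kinase of cofilin (0.867), and Ndfip2, an adaptor of NEDD4 ligases (0.863). These came mainly from the males, where r was 0.931, 0.937 and 0.93, against 0.591, 0.225 and 0.369 in females. Without control male replicate 4 and LKO male replicate 1 the 3 values were 0.708, 0.691 and 0.706. Sdc1 varied most closely with Ccdc30 (0.813), Tmem150a (0.715) and Hoga1, an enzyme of hydroxyproline breakdown (0.702), which stood at 0.783, 0.507 and 0.525 without control female replicate 2 and LKO male replicate 4.

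**Figure D4:**
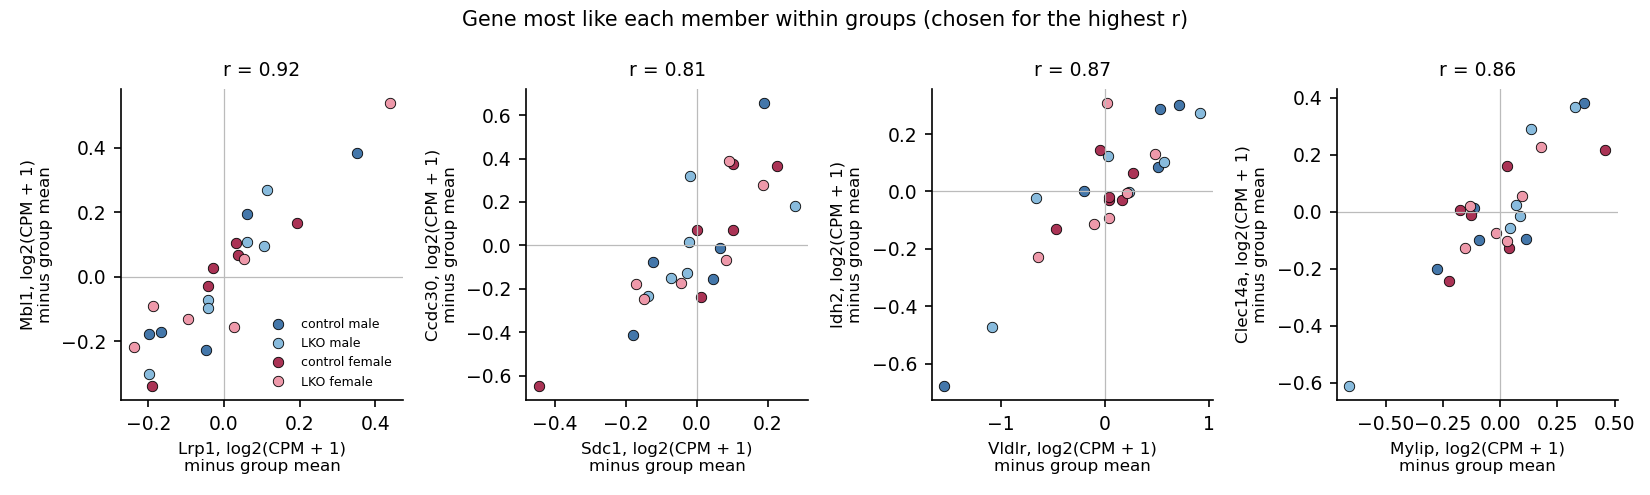
Each point is 1 of 23 livers, and both axes are log2(CPM + 1) minus the mean of that liver's group, for each member and the gene with the highest Pearson r to it. The Vldlr panel has 2 male livers far to the left, control male replicate 4 and LKO male replicate 1, and the Mylip panel has LKO male replicate 1 at the lower left.

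The same group-centred values were set against the mean of each list and of each cell type's markers, and the members against each other. Of these 74 relations, 7 had an adjusted permutation p under 0.05 by Pearson's r. The centred values were shuffled over all livers without regard to group. This makes no allowance for the group means taken off, or for spread that differed between groups, as that of Vldlr did between the sexes. The permutation p-values may therefore be too small, and relations with an adjusted p near 0.05 are the least secure. Lrp1 was lower in livers with more stellate and fibroblast transcript, with r = -0.803 (p = 1e-05, the smallest that 100000 resamples can give, adjusted p = 0.00074; rho = -0.795, p = 1e-05, adjusted p = 0.00074). The relation was -0.918 within males and -0.759 within females, and -0.712 without LKO female replicate 6 and control male replicate 4. Lrp1 was also lower in livers with more transcript of lipid-associated macrophages (r = -0.612, permutation p = 0.00207, adjusted p = 0.0306; rho = -0.671, p = 0.00078, adjusted p = 0.0289), mostly among males (-0.89, against -0.293 in females). Without the same 2 livers this r was -0.68. Mylip followed the sinusoidal endothelial markers, of which Oit3 is one (r = 0.584, permutation p = 0.00316, adjusted p = 0.039; rho = 0.512, p = 0.0137, adjusted p = 0.0953), at 0.599 in males, 0.647 in females and 0.588 without LKO male replicate 1 and control female replicate 1. Its relation to the LXR list, r = 0.433 (permutation p = 0.0394; rho = 0.459, p = 0.0287, adjusted p = 0.163), had an adjusted p of 0.182.

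Vldlr had 4 such relations by Pearson's r, with the lipid-associated macrophage markers (r = 0.692, permutation p = 0.00034, adjusted p = 0.0126; rho = 0.512, p = 0.0136, adjusted p = 0.0953), the stellate markers (r = 0.629, permutation p = 0.0014, adjusted p = 0.0259; rho = 0.51, p = 0.0142, adjusted p = 0.0953), the hepatocyte markers (r = -0.655, permutation p = 0.00077, adjusted p = 0.019; rho = -0.474, p = 0.0235, adjusted p = 0.145) and the heparan sulfate cores (r = -0.564, permutation p = 0.00418, adjusted p = 0.0442; rho = -0.554, p = 0.00671, adjusted p = 0.0828). None of the 4 passed by rank. Without control male replicate 4 and LKO male replicate 1 they stood at 0.411, 0.365, -0.367 and -0.457, so the first 3 rested largely on those livers. Within males they were 0.707, 0.775, -0.837 and -0.733, and within females 0.608, 0.0346, -0.166 and -0.398. Sdc1 had no relation with an adjusted p under 0.05 by either measure, and none of the 6 pairs of members did, the closest being Lrp1 with Vldlr (r = -0.484, permutation p = 0.0197, adjusted p = 0.144; rho = -0.529, p = 0.01, adjusted p = 0.0953).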

How the data were processed

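Liver RNA of 23 mice was sequenced after poly-T bead selection and dUTP library preparation, per the labels' protocols. Reads were aligned with HISAT2 2.0.5 to mm39, per the submitters' processing notes, and the counter and its strand setting are not given in the sources used here. The authors deposited 1 table per sex, each with raw counts per gene, normalised counts (a signal that was each count divided by a size factor), FPKM, and a log2 fold change, p-value and adjusted p-value per gene. In the authors' deposited tables no member had an adjusted p under 0.05, and the lowest was 0.5957, for Lrp1 in males. The deposited adjusted values of Vldlr and Mylip in males may stand for missing ones and are not read here.

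Raw counts were tested with edgeR 4.0.16 in R 4.3.3 (filterByExpr, TMM factors, glmQLFit and glmQLFTest, Benjamini-Hochberg over all genes tested, threshold 0.05), within each sex, over 4 group means for the interaction and the mean genotype difference, and between the sexes over genes in both tables. Intervals are 95%, from the standard error and residual degrees of freedom. Depth was 14224665 to 19626662 counts a library. DESeq2 1.42.0, limma 3.58.1 on log2(FPKM + 1) and log2(FPKM + 0.1), RLE factors, library size alone, no filter, 10 or more counts in each sample, 1 fit of all 23 samples, a replicate block and leaving out each liver were alternatives. The edgeR step was tested on simulated counts. Promoters came from RefSeq GRCm38.p6.

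The members and lists were chosen with earlier results of these data known. Beyond the members, each list's gene with the lowest p in each sex and up to 4 called genes were named, with the 3 genes most like each member among those with a mean of at least 50 counts. Replicates are separate mice only as far as the labels number them, so p-values measure the spread between these samples.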

Additional observations from a re-analysis of the deposited data

Results flagged for a closer look

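The highest and lowest liver of each group were compared with the rest by Dixon's test. The genes were the members, Cpt1a, each list's gene of lowest p in each sex, and the genes that edgeR called by genotype. Sdc2, Sdc3, Sdc4 and Gpc4, named after their values were seen, were included, and the companions found by correlation were not. Of 124 pairs of gene and group over 31 genes, 12 stood apart. Chance flags about 1 in 20 groups. Among the members these were Mylip in LKO male replicate 1 (6.32 CPM, the nearest other liver at 10.9), Mylip in control female replicate 1 (14.2, nearest 10.3), Lrp1 in LKO female replicate 6 (929, nearest 711) and Sdc1 in LKO male replicate 4 (278, nearest 226). Control male replicate 4 stood above its group for 2 heparan sulfate cores, Gpc4 (41.6 CPM, nearest 33.4) and Sdc4 (846, nearest 448). Gpc4 also stood high in LKO female replicate 5 (46.9, nearest 38.8). Commd9 stood high in LKO male replicate 3 (30.2, nearest 27) and low in control female replicate 6 (21.4, nearest 26.6). Low values stood apart for Cyp7a1 in LKO male replicate 6 (11.1, nearest 45.4), Adam17 in LKO female replicate 4 (11.7, nearest 14.7) and Apoc3 in LKO male replicate 5 (1578, nearest 1877).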

How the results depend on the processing

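No member was called by genotype under any alternative run, but Vldlr has no value in males, the interaction or the mean difference when 10 or more counts are required in each sample, and no adjusted p under DESeq2 in males (-0.451). That filter removed Vldlr between the sexes too and left 1 of 4 members called between the sexes in controls and 1 in LKO livers. With library size alone Mylip changed sign between the sexes in controls (-0.00855) and in the mean genotype difference (0.0322). Leaving out single livers gave log2 differences of -0.0767 to 0.159 for Vldlr and -0.0224 to 0.104 for Sdc1 between genotypes in females, and in the interaction -0.0437 to 0.11 for Lrp1 and -0.0947 to 0.0431 for Sdc1. Between the sexes in controls it gave -0.0875 to 0.145 for Mylip and 1.19 to 1.68 for Vldlr, with 1 to 2 members called, in LKO livers -0.351 to -0.162 for Mylip, and in the mean genotype difference -0.0517 to 0.0422 for Mylip. In males it gave -0.118 to 0.886 for Gpnmb, -0.285 to 0.596 for Trem2 and -0.177 to 0.449 for Spp1. In the fit of all 23 samples Gpnmb (adjusted p 0.0661), Trem2 (0.167) and Spp1 (0.335) lost their female calls.

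Counts of genes called moved more: DESeq2 called 112 in males, 559 in females, 96 in the interaction and 323 in the mean difference, against 1, 194, 0 and 79 by edgeR. The fit of all 23 samples called 5 in males and 94 in females, library size alone 2, no filter 2 and at least 10 counts 3 in males. Leaving out single livers gave 1 to 2 in males, 87 to 233 in females, 0 to 17 in the interaction (17 without control male replicate 4) and 30 to 206 in the mean. The livers share only a number, since not every same-numbered pair correlated over 0.1 in its deviations (-0.439 to 0.438 in males, -0.0287 to 0.211 in females). In females 5 of 6 pairs did, and 4 of 6 correlated best with their own number, a hint from the data and not the design. With the replicate block 2 genes were called in males, 334 in females, 0 in the interaction and 46 in the mean, and 0 of 4 members, and Cd36 (0.662, adjusted p 0.0434) and Scap (-0.394, adjusted p 0.0339) passed in females. At this depth Vldlr in males rests on 3 to 80 counts a liver.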

Other observations

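Some genes that build heparan sulfate chains also differed between the sexes, and are named here after their values were seen. In controls 6 of 23 tested were called by edgeR, 3 in each direction, where 18% of all genes tested were called. Papss2, which makes the sulfate donor, was higher in females (log2 1.41, SE 0.138, adjusted p = 3.18e-05), as were Glce, the glucuronyl epimerase (0.54, adjusted p = 0.00134), and the sulfotransferase Hs3st3b1 (0.43, adjusted p = 0.00472). Papss1, the other donor synthase (-0.77, adjusted p = 0.0374), Ugdh, which makes UDP-glucuronate (-0.57, adjusted p = 0.0296), and B3gat3, of the linkage region (-0.43, adjusted p = 0.0342), were lower. In LKO livers edgeR called 3 of 22 tested, a share near the 12.4% of all genes that it called. No difference of the list as a whole is read from either count. Papss2 (0.98, adjusted p = 0.00096) and Ugdh (-0.92, adjusted p = 0.000509) were called in the same directions as in controls. The third, B4galt7, was lower in females and had not been called by edgeR in controls. Sex and deposited table cannot be told apart.

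Among lipoprotein receptors other than the members, edgeR called 3 of 15 between the sexes in controls: Sorl1 was higher in females (log2 0.96, adjusted p = 0.0126), and Lrp11 (-1.22, adjusted p = 0.0217) and Lrp10 (-0.25, adjusted p = 0.0394) were lower. A share of 3 of 15 is near that of all genes, 18%. In LKO livers it called 4 of 15, where 12.4% of all genes tested were called. Lrp4 (0.43, adjusted p = 0.0248) and Lrp6 (0.31, adjusted p = 0.00737) were higher in females, and Lrp5 (-0.48, adjusted p = 0.0029) and Sort1, sortilin (-1.34, adjusted p = 3.87e-05), were lower. The genotype by sex interaction over the 16 receptors tested called 0 by edgeR, with 1 of 16 at an unadjusted p under 0.05, and 0 by DESeq2. Over all 14503 genes edgeR called 0 and DESeq2 0.662%, and 12.9% had an unadjusted edgeR p under 0.05.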
